A study of Homo sapiens with 24 samples.

Results

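The miR-378 family is a set of mature microRNAs (miRNAs) that share a name and, for most of them, nearly the same sequence. Of the 2656 mature miRNAs in the table of counts, 6 were taken by name as its members, namely hsa-miR-378a-3p, hsa-miR-378a-5p, hsa-miR-378c, hsa-miR-378d, hsa-miR-378f and hsa-miR-378i, written below without the prefix for human. All 6 were among the 905 miRNAs that reached 1 CPM, a count scaled to the size of its library, in 4 or more libraries and so were tested. The family was picked with earlier results from the same libraries known, so its fold changes and false discovery rates (FDRs) are given as a description.

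A miRNA is cut from a hairpin RNA, and each of the hairpin's arms can give a mature strand, called 5p or 3p. Bases 2 to 8 of the strand, the seed, pair with target mRNAs, so strands with the same seed share many predicted targets. The hairpin of miR-378a lies within PPARGC1B, the gene of the transcriptional coactivator PGC-1β, and both of its arms are known from metabolic tissues for their links to mitochondrial fatty acid oxidation and energy balance.

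MiR-seq was done on OV90, a human cell line from an epithelial ovarian cancer, with 4 libraries in each of 6 groups. The cells carried a negative control shRNA (shNeg, labelled wild type in the genotype field), an shRNA against RELA, a subunit of canonical NF-κB signaling, or an shRNA against RELB, a subunit of the non-canonical pathway. Each was grown in adherent culture with serum or as spheroids in ultra-low attachment plates with growth factors, which favors tumor-initiating cells, and all 24 libraries, shNeg included, came from cells given 1 µg/ml doxycycline for 72 h to induce the shRNA. The questions were how silencing RELA or RELB moved the miRNAs in each culture and how the cultures differed.

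The sequences are shown because the members are told apart by a few bases. In each, the seed is in capitals, and the sequences are from RefSeq with GRCh38.p14, which held 5 of the 6 members; miR-378d was not among them.
miR-378a-3p: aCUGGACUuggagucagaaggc
miR-378c: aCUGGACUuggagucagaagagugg
miR-378f: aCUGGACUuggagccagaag
miR-378i: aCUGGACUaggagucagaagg
miR-378a-5p: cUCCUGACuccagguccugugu
With positions counted from 1 at the 5′ end and the base of miR-378a-3p first, miR-378f differed by U14C and miR-378i by U9A. MiR-378c had the first 20 bases of miR-378a-3p and another 3′ end. The seed CUGGACU was found in 7 of the 2370 mature human miRNAs of the RefSeq table, 4 of them members, and miR-378a-5p had a different seed. A read of the shared first 20 bases would match both miR-378a-3p and miR-378c. How such reads were assigned is not given in the sources used here, so the split between these members is uncertain. MiR-378f and miR-378i differ from miR-378a-3p by 1 base each, and whether reads of one member were counted as another was not tested. The members called in a comparison are therefore not independent results. Of the 24 deposited values of miR-378d, 11 were not whole numbers, while those of the other members, miR-378a-3p and miR-378c included, were all whole.

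The hairpins lie on separate chromosomes of GRCh38.p14. MIR378A is at chr5:149732825-149732890 on the plus strand, in an intron of PPARGC1B on the same strand. MIR378I is at chr22:41923222-41923297 on the minus strand, within an untranslated exon of TNFRSF13C, the gene of the receptor for the cytokine BAFF, on the same strand. MIR378C, at chr10:130962588-130962668 on the minus strand, and MIR378F, at chr1:23929070-23929147 on the plus strand, overlapped no other gene of the GENCODE annotation.

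Library totals were 3797176 to 8283546 counts in adherent culture and 959134 to 3580932 in spheroid culture. A count of 3, the upper limit that a count of 0 allows, was worth 0.495 to 0.8 CPM in the adherent and 0.860 to 2.29 CPM in the spheroid libraries, and such limits cover counting error only. Spheroid shNeg replicate 1 stood apart, with a count for 432 miRNAs, where the other spheroid libraries had 799 to 1005, and values without it are given where they matter. The labels do not say whether the 4 libraries of a group came from separate cultures, so the tests measure the spread between these libraries. MiR-seq does not read the RELA and RELB mRNAs, so the silencing itself was not checked here. In bulk RNA, fewer cells with a miRNA and less of it per cell cannot be told apart.

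In levels, the family was nearly all miR-378a. MiR-378a-3p ranked 45 among the 2656 miRNAs by mean CPM, and miR-378a-5p, from the opposite arm of the same hairpin, ranked 94. MiR-378i ranked 238, a little after miR-378c, and then came miR-378d at 337 and miR-378f at 450. Together the 6 members made up 0.105% to 0.560% of the counts of a library, and miR-378a-3p held 89.4% to 97.8% of the counts of the members other than miR-378a-5p. MiR-378f was the least counted, with 1 to 53 counts in a library.

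**Figure D1:**
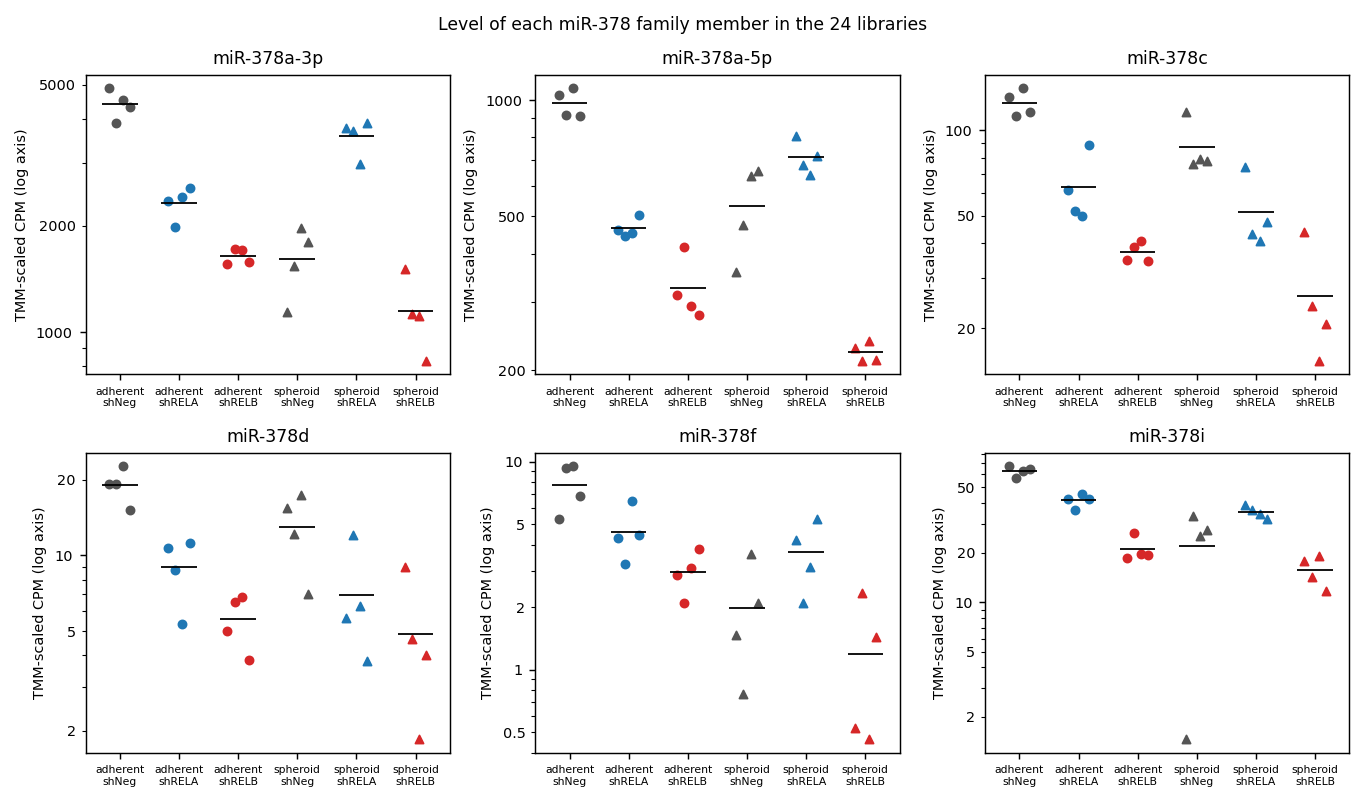
Level of each of the 6 members in each library, in TMM-scaled CPM on log axes that differ between panels; circles are adherent and triangles spheroid libraries, and the bar is the mean of the 4 libraries of a group. The 4 adherent shNeg libraries lie highest for miR-378a-3p, at 3906 to 4896 CPM, and the low point of miR-378i is spheroid shNeg replicate 1, at 1.47 CPM.

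The level of miR-378a-3p was lower with shRELA or shRELB than with shNeg in adherent cells, and in spheroids it was high with shRELA and low with shRELB. In adherent culture, its 4 libraries held 4896, 3906, 4543 and 4329 CPM with shNeg. They held 2350, 1984, 2416 and 2548 CPM with shRELA and 1557, 1717, 1708 and 1574 CPM with shRELB. These 3 groups did not overlap. In spheroids, the values were 1142, 1539, 1964 and 1798 CPM with shNeg, 3774, 3708, 2997 and 3894 CPM with shRELA, and 1509, 1128, 1113 and 831 CPM with shRELB. The spheroid shRELA libraries all lay above the other spheroid libraries, while those of shNeg and shRELB overlapped. Ordered by mean, the groups ran from adherent shNeg (4418 ± 414 CPM, SD, n = 4) through spheroid shRELA (3593 CPM) and adherent shRELA (2324 CPM) to adherent shRELB (1639 CPM), spheroid shNeg (1611 CPM) and spheroid shRELB (1145 CPM). Neighbors among the last 3 overlapped, and the others did not.

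MiR-378a-5p, the other arm, was at 908 to 1073 CPM in the adherent shNeg libraries, 444 to 505 CPM with shRELA and 279 to 417 CPM with shRELB. In spheroids, it was at 359, 476, 637 and 655 CPM with shNeg, 638 to 808 CPM with shRELA and 212 to 238 CPM with shRELB. The shNeg and shRELA spheroids overlapped for this arm, which they did not for miR-378a-3p. The shRELB spheroids had the lowest values of all 24 libraries.

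With RELA knockdown in adherent cells, all 6 members had lower fitted levels than with shNeg. Their log2 fold changes ran from -1.08 to -0.59, with a median of -0.96 beside a median of 0.09 over the 905 miRNAs. MiR-378a-5p was the 1 member called at an FDR below 0.01 and a fold change above 2, at -1.08 ± 0.18 (SE; edgeR quasi-likelihood FDR = 4.72e-05). Of all 905 miRNAs, 3.76% were called in this comparison and 2.65% were called lower. MiR-378a-3p, at -0.93 ± 0.18 (FDR = 3.47e-04), passed the FDR but not the fold change. The groups did not overlap for 5 members, all lower with shRELA, where 10.8% of the 905 were lower without overlap. The count of calls turned on members that lay close to the thresholds. It was 2 without adherent shRELA replicate 4, where miR-378c was also called at -1.20. It was 3 in the fits on library totals without TMM, without the filter on low counts, or of only the groups compared.

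RELB knockdown in adherent cells gave the most calls in the family. Called lower were 5 of the 6 members, in a comparison that called 7.07% of the 905 miRNAs and 3.54% lower. These 5 are not independent results, since reads of one member may have been assigned to another. MiR-378a-3p had a log2 fold change of -1.43 ± 0.18 (edgeR quasi-likelihood FDR = 2.66e-07), a level 2.70 times lower, and miR-378a-5p one of -1.59 ± 0.18 (FDR = 4.56e-08). MiR-378c, the longest of the sequences shown, was at 112.3 to 141.1 CPM with shNeg and 34.4 to 40.6 CPM with shRELB, with a log2 fold change of -1.75 ± 0.26 (FDR = 6.05e-06). MiR-378d was at -1.77 ± 0.37 and miR-378i at -1.59 ± 0.34 (FDR = 7.17e-04 for each). MiR-378f, at 5.31 to 9.50 CPM with shNeg and 2.10 to 3.83 CPM with shRELB, was not called, at -1.37 ± 0.41 (FDR = 0.0230). The adherent shNeg and shRELB libraries did not overlap for any of the 6 members, as was so for 15.9% of the 905 that were lower. The median over the members was -1.59, beside 0.04 over all 905. Of the listed cell type markers, 1 of 6 epithelial miRNAs was called higher here, beside 3.54% of the 905. Called lower were 1 of 6 epithelial, 1 of 3 leukocyte and the 1 erythroid miRNA tested. MiR-126-3p, listed as an endothelial marker, was also called lower, with a log2 fold change of -1.57. The part of these markers in this result was not tested. The adherent comparisons share their shNeg libraries.

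In spheroids with RELA knockdown, the members did not share a sign. MiR-378a-3p was the 1 member called, and it rose, with a log2 fold change of 1.16 ± 0.18 (edgeR quasi-likelihood FDR = 6.38e-06), where 15.1% of the 905 were called and 7.51% were called higher. MiR-378a-5p was at 0.42 ± 0.18 (FDR = 0.0833), miR-378i at 0.69 ± 0.36 and miR-378f at 0.83 ± 0.55. MiR-378c and miR-378d had the opposite sign, at -0.77 ± 0.27 (FDR = 0.0283) and -0.94 ± 0.41 (FDR = 0.0899). The compared groups did not overlap for miR-378a-3p, which was higher, as were 13.4% of the 905 without overlap, or for miR-378c, which was lower, as were 9.17%. The latter was at 76.4 to 117 CPM with shNeg and 40.7 to 74.0 CPM with shRELA. So the strand that starts with the same 20 bases as miR-378a-3p stood on the other side of 0 in the same libraries. It was not called, and the split of reads between these strands is uncertain.

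The call of miR-378a-3p in shRELA spheroids depended on how the libraries were scaled. Its log2 fold change was 1.00 with median-ratio size factors, 1.00 with DESeq2 and 0.75 with library totals, each short of the fold threshold. With library totals the 1 member called was instead miR-378c, as lower, at -1.16 (edgeR quasi-likelihood FDR = 4.53e-04). The scalings moved all miRNAs, the median of the 905 being 0.09 with TMM, -0.01 with median-ratio size factors and -0.25 with library totals. Relative to that median, miR-378a-3p was higher by 1.06, 1.01 and 1.00 on the log2 scale. For miR-378a-5p the same values were 0.32, 0.27 and 0.26, and for miR-378c they were -0.86, -0.93 and -0.90. A scaling shifts all miRNAs by nearly the same amount, so the closeness of these values follows from the subtraction. It is no test of the changes. Without spheroid shNeg replicate 1, miR-378a-3p was at 1.02 ± 0.17 and still called, miR-378a-5p at 0.27 and miR-378i at 0.31. MiR-378c, which was highest of its group in that library, was then at -0.60 ± 0.25 (edgeR quasi-likelihood FDR = 0.0699).

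RELB knockdown in spheroids lowered 3 members, in a comparison where 13.4% of the 905 miRNAs were called and 6.08% were called lower. MiR-378a-5p fell by 1.26 on the log2 scale (SE 0.18; edgeR quasi-likelihood FDR = 2.04e-06) and miR-378c fell by 1.77 (SE 0.28; FDR = 7.18e-06). MiR-378d, at -1.45 ± 0.42, was called with an FDR of 0.00995, just inside the threshold, and was not called in 6 of the 8 fits that left out 1 library of the compared groups, nor without the filter or with only the groups compared. MiR-378a-3p was at -0.49 ± 0.18 (FDR = 0.0355), miR-378f at -0.69 ± 0.61 and miR-378i at -0.49 ± 0.37, none of them called. The spheroid comparisons share their shNeg libraries, replicate 1 included. MiR-378i was at -0.88 ± 0.24 (FDR = 0.00499) without that library, in which it had 2 counts against 39 to 49 in the rest of the group.

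**Figure D2:**
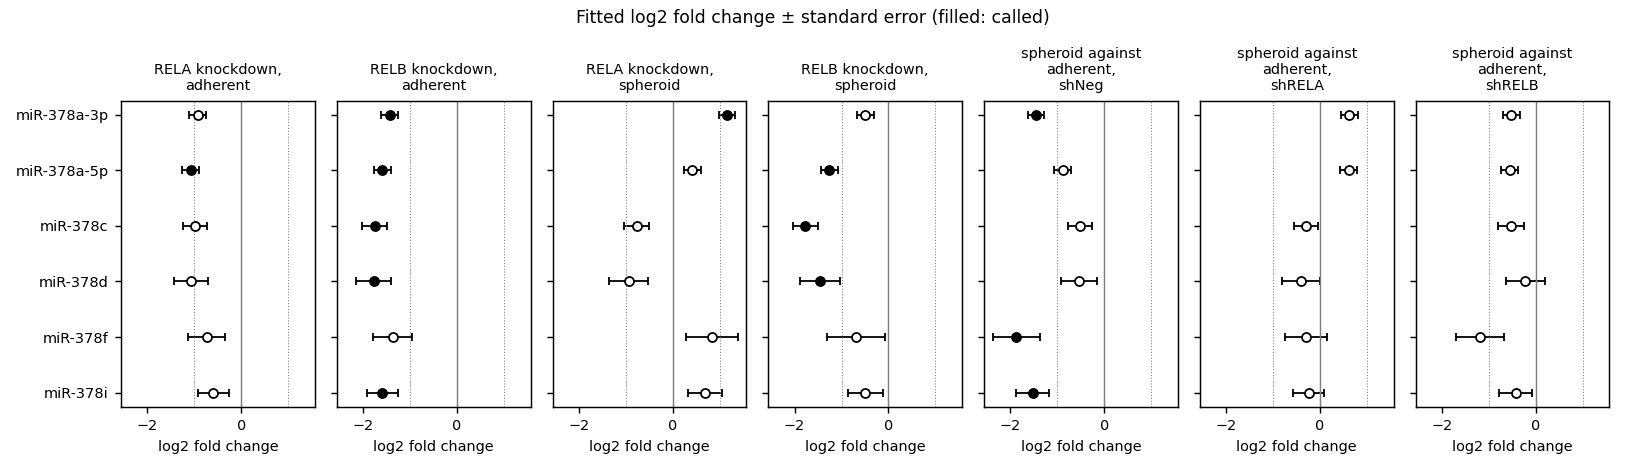
Fitted log2 fold change of each member in the 4 knockdown comparisons and the 3 comparisons of spheroid against adherent culture, with bars of 1 standard error; filled points are called and dotted lines mark a 2-fold change. All 6 members lie left of 0 with either shRNA in adherent cells, and miR-378a-3p is the filled point on the right with shRELA in spheroids, at 1.16.

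The change with RELA knockdown differed between the cultures for both arms of miR-378a. The difference, spheroid less adherent, was 2.08 ± 0.25 on the log2 scale for miR-378a-3p (edgeR quasi-likelihood FDR = 1.14e-06) and 1.49 ± 0.26 for miR-378a-5p (FDR = 1.22e-04). These were the 2 members called, beside 7.62% of the 905 miRNAs. Both were called in each of the 16 fits that left out 1 library of the 4 groups, at 1.95 to 2.19 and 1.35 to 1.61, and under every scaling tried. The difference was 1.57 ± 0.68 for miR-378f and 1.28 ± 0.48 for miR-378i, and 0.22 ± 0.37 for miR-378c and 0.13 ± 0.55 for miR-378d, none called. For RELB knockdown, 0 members were called in edgeR's test, while 8.51% of the 905 were. MiR-378a-3p had an FDR of 0.00746 with a difference of 0.94 ± 0.25, under the fold threshold, and miR-378i an unadjusted p of 0.0336 in the same fit, so 2 members had an unadjusted p below 0.05, and DESeq2 called 0. Without spheroid shNeg replicate 3 the difference of miR-378a-3p was 1.05, and without spheroid shRELB replicate 4 it was 1.10, and it was called in both.

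Under control shRNA, all 6 members had lower fitted levels in spheroids than in adherent cells. Their median log2 fold change was -1.17, beside a median of -0.26 over the 905 miRNAs. Called lower were 3, where 42.2% of the 905 were called and 20.9% called lower. MiR-378a-3p was 2.74 times lower, with a log2 fold change of -1.46 ± 0.18 (edgeR quasi-likelihood FDR = 1.98e-08). MiR-378f was at -1.87 ± 0.50 (FDR = 0.00194) and miR-378i at -1.52 ± 0.35 (FDR = 4.18e-04). MiR-378a-5p, at -0.89 ± 0.18 (FDR = 9.02e-05), missed the fold threshold, and miR-378c and miR-378d were at -0.52 ± 0.26 and -0.54 ± 0.38. With library totals in place of TMM, miR-378c was at -0.09 and miR-378d at -0.11, beside a median of 0.17 over the 905. Of the 3 members called, only miR-378a-3p kept its call with library totals and in the fit of only the groups compared. With library totals it was at -1.004, just past the fold threshold. Without spheroid shNeg replicate 1, miR-378a-3p was at -1.32, miR-378f at -1.73 and miR-378i at -1.14, all called.

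In shRELA cells, 0 members were called between the cultures, where 32.6% of the 905 were. MiR-378a-3p was 1.55 times higher in spheroids, at 0.63 ± 0.18 (edgeR quasi-likelihood FDR = 0.00359), and miR-378a-5p was at 0.61 ± 0.18 (FDR = 0.00543), both under the fold threshold. Both were higher without overlap between the groups, as were 21.3% of the 905. These were also the 2 members with an unadjusted p below 0.05, and DESeq2 called 0. In shRELB cells, 0 members were called, where 25% of the 905 were, and all 6 had negative log2 fold changes, from -1.19 for miR-378f to -0.22 for miR-378d. There miR-378a-3p was at -0.52 ± 0.18 (FDR = 0.0178), and an unadjusted p below 0.05 was found for 3 members, with DESeq2 again calling 0.

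Set directly against RELB knockdown, RELA knockdown left every member at a higher fitted level in both cultures. In adherent cells the log2 differences ran from 0.50 for miR-378a-3p to 1.00 for miR-378i, and 0 members were called, where 10.8% of the 905 were. An unadjusted p below 0.05 was found for 4 members, and DESeq2 called 1, miR-378i at 1.07. In spheroids, miR-378a-3p was 3.14 times and miR-378a-5p 3.19 times higher with shRELA, at 1.65 ± 0.18 (edgeR quasi-likelihood FDR = 1.44e-08) and 1.68 ± 0.19 (FDR = 1.52e-08), the 2 members called beside 6.63% of the 905. MiR-378c, at 1.00 ± 0.27 (FDR = 0.0103), and miR-378i, at 1.178 ± 0.36 (FDR = 0.0196), lay just outside. The fit pools its spread over all groups, and when spheroid shNeg replicate 1 was left out of it, both of these were called too, while miR-378c was called without spheroid shRELB replicate 1, at 1.35.

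Ratios within a library do not depend on its scaling. The count of miR-378a-5p was 31.4%, 30.9%, 32.4% and 36.4% of that of miR-378a-3p in the shNeg spheroids, and it was 15.1% to 25.6% in the other 20 libraries. The shNeg spheroids thus did not overlap with any other group. The mean was 32.8% ± 2.50 (SD, n = 4) there and 19.8% to 22.3% in the other 5 groups. On the log2 scale, with 0.5 added to each count, the ratio of 5p to 3p was lower by 0.73 in shRELA than in shNeg spheroids and by 0.72 in shRELB spheroids. It was higher by 0.56 in shNeg spheroids than in shNeg adherent cells. Each of these 3 had p = 0.0286 in an exact 2-sided permutation test, the smallest that 4 against 4 libraries can give. Adjusted over the 7 comparisons made, this permutation p was 0.0667, which does not pass 0.05. All 3 share the same 4 shNeg spheroid libraries, replicate 1 included, so they are not separate results. The 4 other comparisons differed by -0.18 to 0.01, with adjusted p of 0.2 or more by the same exact permutation test.

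MiR-378c stood apart in the same group. Its count was 10.2%, 4.96%, 4.05% and 4.33% of that of miR-378a-3p in the shNeg spheroids, the first being replicate 1. It was 2.68% to 3.11% in shNeg adherent cells and 1.16% to 1.96% in shRELA spheroids. Without replicate 1, the shNeg spheroids had a mean of 4.45% ± 0.467 (SD, n = 3). MiR-378i made up 0.128% of the miR-378a-3p count in replicate 1 and 1.28% to 2.18% in the other 3 libraries of that group. Across the other groups, miR-378i lay between 0.820% in shRELA spheroids and 1.89% in shRELA adherent cells. MiR-378d and miR-378f were at or below 1.35% and 0.268% in every library.

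**Figure D3:**
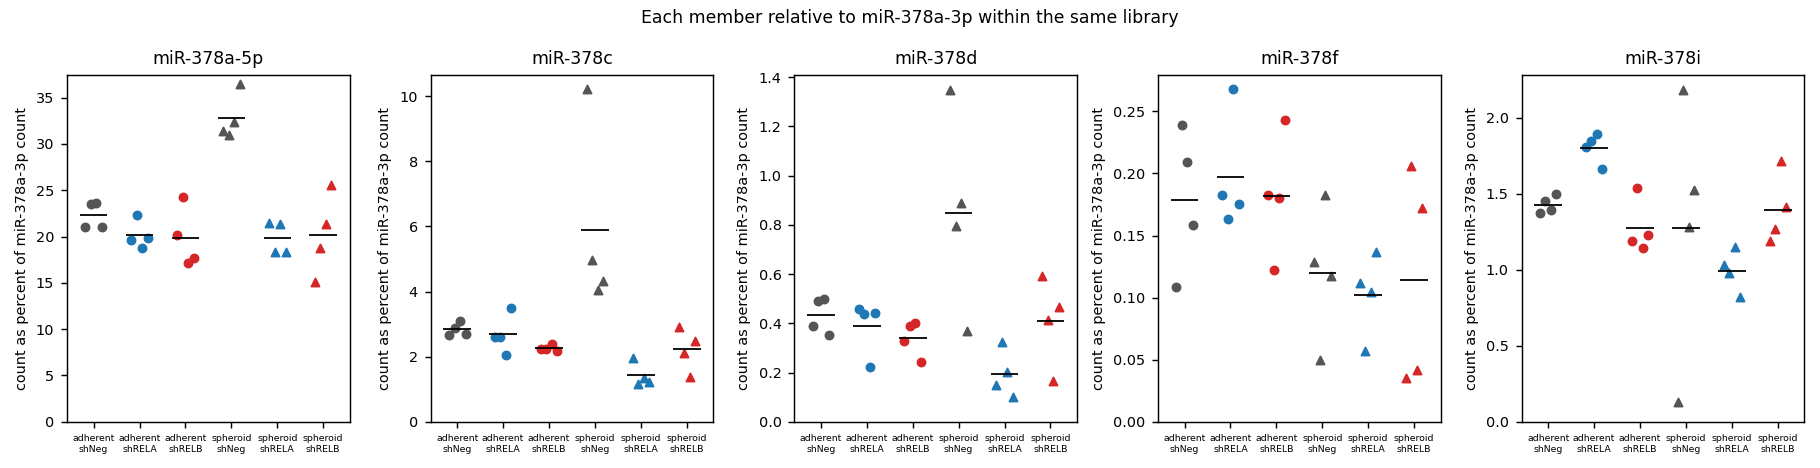
Count of each other member as a percent of the miR-378a-3p count of the same library, by group; circles are adherent and triangles spheroid libraries, bars are group means, and each axis starts at 0. The shNeg spheroids lie highest for miR-378a-5p, at 30.9% to 36.4%, and for miR-378c, where replicate 1 is at 10.2%.

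Over the 24 libraries, on log2 CPM, miR-378a-5p followed miR-378a-3p with a Pearson r of 0.91. The r was 0.76 for miR-378i, 0.75 for miR-378f, 0.64 for miR-378c and 0.51 for miR-378d. The libraries fall into 6 groups and share their scaling, and the last members have few counts, so these values only describe the libraries. Among 331 miRNAs outside the seed family with a mean of at least 10 CPM, the most similar were miR-105-5p (0.78), miR-194-5p (0.76), miR-9-5p (0.71), miR-215-5p (0.71) and miR-192-5p (0.69). MiR-105-5p had its highest mean in shRELA spheroids, 211 ± 28.7 CPM (SD, n = 4), and its lowest in shRELB spheroids, 38.4 ± 5.48 CPM. MiR-194-5p, by contrast, was at 607 CPM in shNeg and 588 CPM in shRELA adherent cells, where miR-378a-3p was at 4418 and 2324 CPM.

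Of 6 further miRNAs with the same name or seed, miR-378b, miR-378e, miR-378g, miR-378h, miR-378j and miR-422a, 3 had enough counts to be tested. In the 4 knockdown comparisons, 0 of them were called by edgeR. In shNeg cells 1 was called lower in spheroids, miR-378b, where 20.9% of the 905 were called lower. MiR-378b was at 0 in all 4 shNeg spheroid libraries and at 3 to 12 counts, or 0.80 to 1.99 CPM, in the adherent ones. A count of 3 was worth 1.54 to 2.29 CPM in those spheroid libraries, above the adherent shNeg mean of 1.22 CPM. Of 14 miRNAs linked to lipid, glucose or oxygen metabolism in other tissues, 12 were tested. Called were 0 higher and 1 lower with RELA knockdown in adherent cells, 1 and 1 with RELB knockdown there, 2 and 1 with RELA knockdown in spheroids, and 1 and 0 with RELB knockdown in spheroids. Of all 905 miRNAs, 3.76%, 7.07%, 15.1% and 13.4% were called in these 4 knockdown comparisons, in that order. With shNeg, 0 of the metabolism miRNAs were called higher and 7 lower in spheroids, beside 21.3% and 20.9% of the 905.

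Named from that list, miR-34a-5p, a p53 target, rose by 1.49 ± 0.20 on the log2 scale with RELB knockdown in adherent cells, and in spheroids by 1.40 ± 0.21 with RELA and 1.67 ± 0.21 with RELB knockdown. MiR-143-3p, abundant in smooth muscle, had a log2 fold change of -2.58 ± 0.26 with RELA knockdown in adherent cells and -2.48 ± 0.30 in spheroids. MiR-107, which comes from an intron of a pantothenate kinase gene, was at 1.31 ± 0.22 with RELA knockdown in spheroids, the same direction as miR-378a-3p. MiR-27b-3p was at -1.05 ± 0.21 with RELB knockdown in adherent cells. Lower in shNeg spheroids were these 4 along with miR-103a-3p and miR-27a-3p, with log2 fold changes of -2.04 to -1.09. The other one called there, miR-33b-3p, was named after its values were seen, and it had 7 to 17 counts in the adherent and 0 in all 4 spheroid shNeg libraries. It was at 1.33 to 2.92 CPM in those adherent libraries, while a count of 3 was worth 1.54 to 2.29 CPM in the spheroid ones.

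Markers of cell types were summed in each library. The 6 epithelial miRNAs of the miR-200 family and miR-205 summed to 2486 to 16336 CPM, but they did not move together. From shNeg to shRELB adherent cells, the mean of miR-200c-3p went from 3170 to 7920 CPM and that of miR-205-5p from 1622 to 670 CPM. With RELB knockdown, 1 of the 6 was called higher and 1 lower in adherent cells, beside 3.54% and 3.54% of the 905. In spheroids 3 were called higher and 1 lower, beside 7.29% and 6.08%. The sums were 4.14 to 50.9 CPM for 4 leukocyte, 0 to 7.20 for 2 erythroid and 0 to 13.1 for 7 muscle miRNAs, of which 2 muscle miRNAs were at 0 in every library. The 2 stromal miRNAs, miR-143-3p and miR-145-5p, summed to 225 to 256 CPM in shNeg, 22.5 to 45.2 CPM in shRELA and 172 to 192 CPM in shRELB adherent cells. In spheroids they summed to 53.3 to 66.7 CPM with shNeg, 12.6 to 23.6 CPM with shRELA and 72.7 to 112 CPM with shRELB. MiR-126-3p, the 1 miRNA listed as endothelial, exceeded the epithelial sum in shNeg and shRELA adherent cells, at 6263 to 7357 and 3835 to 8826 CPM. It was at 2093 to 2404 CPM in shRELB adherent cells, and at 696 to 856 CPM with shNeg, 1144 to 1667 CPM with shRELA and 538 to 1216 CPM with shRELB in spheroids. It was called lower in shRELB than in shNeg adherent cells and in spheroids than in adherent cells with each shRNA. It thus moved with the lower family levels of the first and of shNeg and shRELB spheroids. With RELA knockdown in spheroids it was at 0.81, where miR-378a-3p rose. But it was at -0.12 with RELA knockdown in adherent cells and 0.14 with RELB knockdown in spheroids, where all 6 members were lower. Between cultures in shRELA cells it was at -2.19, where miR-378a-3p was at 0.63. Its part in these results was not tested.

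**Figure D4:**
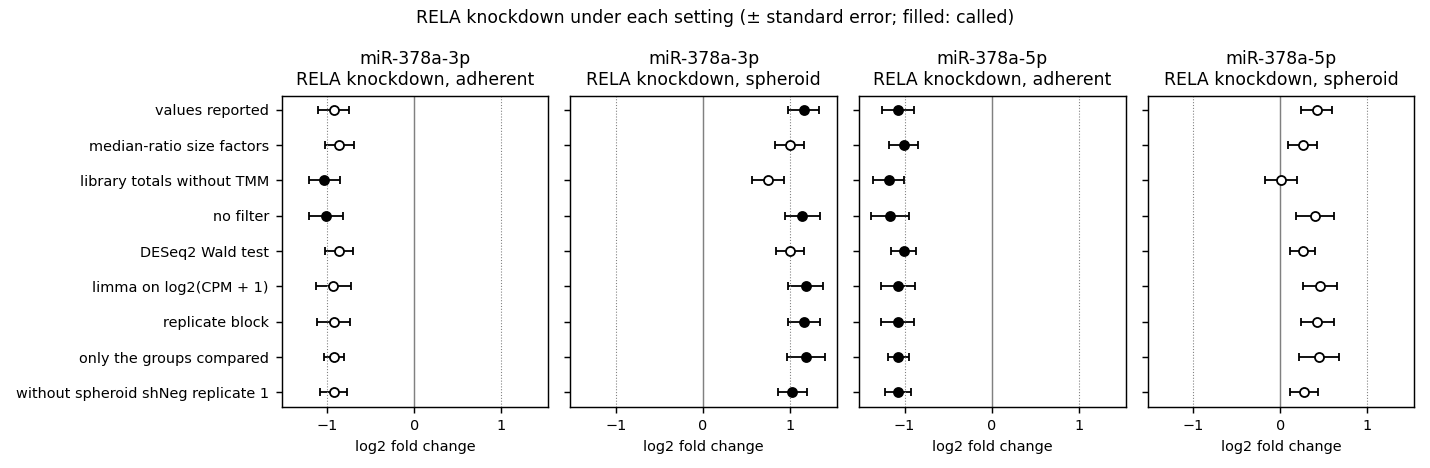
Log2 fold change of miR-378a-3p and miR-378a-5p with RELA knockdown in adherent and spheroid culture under each setting, with bars of 1 standard error; filled points are called and dotted lines mark a 2-fold change. In spheroids, miR-378a-3p lies between 0.75 with library totals and 1.185 with only the groups compared, on both sides of the 2-fold line.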

How the data were processed

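The members and lists were chosen with earlier results of these data known. According to the methods, the authors trimmed reads with Cutadapt and assigned them to miRBase with miRDeep2 on GRCh38, and the kit's molecular indices are not stated to have been collapsed. The table deposited by the authors holds estimated counts per mature miRNA, not scaled for depth, and 3.04% of its non-zero values were not whole and were rounded. With R 4.3.3 and edgeR 4.0.16, counts of miRNAs that reached 1 CPM in 4 or more libraries were scaled by TMM and fitted over the 6 groups with the quasi-likelihood test. FDRs are Benjamini-Hochberg values over all 905, with calls made where the FDR was under 0.01 and the fold change over 2. The SE is the log2 fold change over the root of F. The edgeR, limma and DESeq2 fits were tried on simulated counts with known changes for RELA knockdown in adherent cells only. The other comparisons and the permutation test were not tried in this way. Alternatives were median-ratio size factors, library totals, no filter, DESeq2 1.42.0, limma 3.58.1 on log2(CPM + 1), a replicate block, only the groups compared, 2 counts added to the ratios, and each library left out. Fits of other groups without spheroid shNeg replicate 1 were chosen after seeing the data. Arm ratios used exact permutation tests. Named were the 6 members, relatives by name or seed, called miRNAs of a metabolism list (at most 6), and the 5 miRNAs most correlated with miR-378a-3p. Marker lists were epithelial, leukocyte, erythroid, stromal, endothelial and muscle. Raw reads were not analysed here.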

Additional observations from a re-analysis of the deposited data

Results flagged for a closer look

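The effect of RELA knockdown differed between spheroid and adherent culture by 2.08 on the log2 scale for miR-378a-3p and by 1.49 for miR-378a-5p, each by edgeR's test of the difference itself.

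In 4 of 66 sets of 4 libraries, 1 library lay far from the other 3 by Dixon's test, which chance alone does in about 1 of 20. MiR-378c was at 116.6 CPM in spheroid shNeg replicate 1, and at 76.4 to 79.5 CPM in the other 3. In the same library its count was 10.2% of that of miR-378a-3p. MiR-378i was at 26.4 CPM in adherent shRELB replicate 2, above 18.6 to 19.5 CPM in the rest of its group. MiR-378d was at 0.225% of the miR-378a-3p count in adherent shRELA replicate 3.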

How the results depend on the processing

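With all libraries kept, the counts of members called were within 1.5 times the values given in all but these alternatives. With RELA knockdown in adherent cells, 1 call became 3 with library totals, 3 without the filter, 2 with the replicate block and 3 with only the groups compared. With RELA knockdown in spheroids, 1 became 0 with median-ratio size factors and 0 with DESeq2, while with library totals the call passed from miR-378a-3p, higher, to miR-378c, lower at -1.16. Between cultures in shNeg cells, 3 became 1 with library totals and 1 with only the groups compared, and for RELA against RELB in adherent cells 0 became 1 with DESeq2. The cause was not tested.

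Leaving out each library in turn gave 1 to 2 calls with RELA and 5 to 6 with RELB knockdown in adherent cells, 1 with RELA and 2 to 3 with RELB knockdown in spheroids, 3 to 4 between cultures in shNeg cells, and 0 in shRELA and shRELB cells. It gave 0 for RELA against RELB in adherent cells and 2 to 4 in spheroids, 2 for the difference of RELA knockdown between cultures and 0 to 1 for that of RELB knockdown. The difference of the log2 ratio of 5p to 3p ranged from -0.76 to -0.67 with RELA and -0.84 to -0.59 with RELB knockdown in spheroids, from 0.51 to 0.59 between cultures in shNeg cells, from -0.20 to -0.11 and -0.28 to -0.12 in adherent cells, and changed sign between cultures in shRELA (-0.060 to 0.029) and shRELB cells (-0.11 to 0.15).

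Of 1122 member values under the alternatives, 22 changed sign, none of them called. With RELB knockdown in spheroids, miR-378i was at 0.057 with limma. In the difference of RELA knockdown between cultures, miR-378c was at -0.030 with library totals and -0.0076 to 0.43 when 1 library was left out, and miR-378d at -0.068 with median-ratio size factors, -0.11 with library totals, -0.079 with DESeq2 and -0.26 to 0.35 when 1 library was left out. In that of RELB knockdown, library totals put miR-378a-5p at -0.066 and miR-378d at -0.078, leaving out 1 library put miR-378d at -0.084 to 0.62, and miR-378c, at -0.015 in the values reported, was at 0.031 without the filter, 0.089 with only the groups compared and -0.37 to 0.21 when 1 library was left out.

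Libraries with the same replicate number had correlated deviations (r above 0.1) in 9 of 36 pairs, from -0.49 to 0.34 over 335 miRNAs, so the numbers were not taken to pair the libraries. The block moved the count of calls in adherent RELA knockdown as above, took miR-378d with RELB knockdown in spheroids out of the calls, at -1.45, and added miR-378c to RELA against RELB in spheroids, at 1.01. With pairs by replicate number, the smallest p of the exact sign-flip test is 0.125, so no arm ratio could pass. Spheroid libraries had fewer counts, which limits miR-378f most, at 1 to 14 counts there.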
